A study of Mus musculus with 9 samples.

Results

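Ifi27, Bst2, Lgals3bp, Ifitm3, Ifitm2 and Ly6e are interferon-responsive genes that glia of the adult mouse brain transcribe without infection. These 6 genes, of 32287 in the matrix, were followed in CPM, the number of unique molecular identifiers (UMIs, counted transcript molecules) of a gene per 1000000 UMIs of a cell class, in wild-type mice and in mice lacking both interferon receptors, at a young and an old age. They were chosen for their levels in these libraries and for the difference between receptor knockout and wild-type, so those levels and that difference are given as a description, with no test. Tissue of origin, which the rule does not name, and age were tested, on members chosen with earlier results of these data known. The rule read levels in libraries of both ages, so the age tests are not independent of the choice.

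The study compared 4 groups of male TiCY mice, with 2 mice a group, by droplet single-cell RNA sequencing, and asked how interferon reception acts on neural stem cells (NSCs) with age. All mice carried Tlx (Nr2e1)-CreERT2, a ROSA26 eYFP reporter and, by the strain name, a Fas tm1Cgn allele on a C57BL/6 background, so the young and old wild-type (WT) animals carry these alleles as well. Tamoxifen switches on eYFP in cells with Tlx promoter activity and in their progeny. IFNAGR KO mice lacked Ifnar1 (tm1Agt) and Ifngr1 (tm1Agt) in every cell, not in NSCs alone. WT young mice received tamoxifen at 10 weeks and were taken 6 weeks later, and KO young mice at 7 weeks with a chase of 9 weeks, so that both were 16 weeks old. WT old mice were treated at 71 weeks and taken at 80 weeks. KO old mice were treated at 85 and 98 weeks and are labelled 92 to 105 weeks old, so the old groups differ in age as well as genotype. Cells positive for CD45, Ter119 or O4 were sorted out. From the ventricular-subventricular zone (vSVZ) eYFP+ and GLAST+ cells were taken, and from the rest of the brain dissected (RoB, striatum, olfactory bulb and rostral migratory stream pooled) eYFP+ and eYFP- PSANCAM low cells. Each group was 1 droplet reaction with 1 library, in which hashtags mark the mouse and the tissue. Group and reaction therefore cannot be told apart.

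After filtering, the WT libraries held 5820 young and 2396 old cells and the KO libraries 6461 young and 3378 old cells, at a median of 5026 to 7393 UMIs a cell, and a hashtag could be called for 20.2% to 60.5% of the cells of a library. Classes were rebuilt by clustering without the members and without the interferon gene lists, and 22 of 29 clusters took a name from markers, written here as "-like". The 8 quiescent NSC markers were all higher in the quiescent NSC-like cells than in the rest. These markers are shared with astrocytes. Microglia-like cells (329) were present despite the CD45 sort. The targeted receptor genes checked the labels. Ifngr1, the ligand-binding chain of the interferon-γ receptor, was at 46.9 CPM in young and 85.4 in old WT, against 2.88 and 4.40 in KO of these ages. Ifnar1, a chain of the type I receptor, was at 21.2 and 28.6 in WT and at 8.08 and 6.56 in KO. The partner chains differed little, with Ifnar2 at 62.4 and 83.0 in WT and 58.6 and 80.7 in KO, and Ifngr2 at 34.3 and 27.4 in WT and 33.4 and 26.6 in KO.

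Type I interferons bind IFNAR and interferon-γ binds IFNGR, and both receptors act through JAK kinases and STAT transcription factors. Type I signalling leads to binding at the interferon-stimulated response element (ISRE), and interferon-γ signalling to binding at gamma-activated sites (GAS). In tissues without infection a low, continuous supply of interferon keeps part of this gene set transcribed. Of the 6 genes, Bst2 encodes tetherin, which holds budding virions at the cell membrane. Ifitm2 and Ifitm3 encode membrane proteins that restrict entry of enveloped viruses. Ifi27 encodes a small hydrophobic membrane protein of the ISG12 family, Lgals3bp a secreted glycoprotein that binds galectin-3, and Ly6e a GPI-anchored surface protein of the Ly6 family. Bst2, Lgals3bp, Ly6e and Ifitm3 are on the study's list of the genes most significantly induced by IFN-β in cultured NSCs, while Ifi27 and Ifitm2 are not. The list is a cut of the top genes, so absence from it does not show that a gene was not induced.

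In the annotation of the authors' build, GRCm38, all 6 are protein-coding genes. Ifi27 lies at chr12:103434211-103440239 on the plus strand, Bst2 at chr8:71534255-71537456 on the minus strand, Lgals3bp at chr11:118392751-118402092 on the minus strand and Ly6e at chr15:74955051-74959905 on the plus strand. Ifitm2 (chr7:140954837-140955987) and Ifitm3 (chr7:141009586-141010770) lie 53598 bases apart on the minus strand of chromosome 7. They are close paralogs, and how the authors' pseudoalignment divided reads common to both is not resolved here.

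The promoters are shown because the receptors that were deleted act through the ISRE and GAS motifs. RefSeq windows on GRCm38.p6 of 300 bases, from 250 before to 50 after the start, were given for 4 of the 6 genes. Ifi27 and Ly6e had no entry. Both strands were searched for the ISRE as GAAANNGAAA and for the GAS as TTCNNNGAA. An ISRE was in 3.44% of 32851 promoters and a GAS in 8.30%. Capitals mark the matches in the stretches of each gene's strand that hold them, 5′ to 3′.
Bst2, minus strand, chr8:71537553-71537652: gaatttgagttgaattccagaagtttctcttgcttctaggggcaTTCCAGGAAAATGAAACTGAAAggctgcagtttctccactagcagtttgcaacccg
Ifitm2, minus strand, chr7:140955988-140956087: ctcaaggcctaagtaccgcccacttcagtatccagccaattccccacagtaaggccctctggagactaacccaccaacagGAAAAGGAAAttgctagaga
Ifitm3, minus strand, chr7:141010715-141010744: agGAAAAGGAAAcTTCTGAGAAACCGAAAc
Bst2 held overlapping ISREs at -130 to -121 and -124 to -115, with a GAS at -136 to -128 that runs into the first. Ifitm2 held an ISRE at -46 to -37 and no GAS. Ifitm3 held ISREs at 3 to 12 and 20 to 29 and a GAS at 14 to 22 that overlaps the second ISRE. Lgals3bp held neither motif in this window. Among the other interferon genes, an ISRE was in 10 of 11 promoters of interferon-inducible GTPases, 20 of 55 of antiviral effectors and 5 of 19 of antigen presentation genes. A match describes letters in this window and is not a measured binding site.

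Each gene had its own order of cell classes. Ifi27 was highest in olfactory ensheathing glia-like cells, at 840.5 CPM in young and 810.4 in old wild-type mice, the order in which WT values are given here. Endothelial-like cells followed at 303 and 442, oligodendrocyte precursor-like cells at 299 and 435, and quiescent NSC-like cells were at 157 and 168. The values became lower from the quiescent class to activated NSC-like cells (96.3 and 149), transit amplifying progenitor (TAP)-like cells (64.4 and 39.9) and neuron-like cells (17.5 and 31.2), with neuroblast-like cells at 52.2 and 63.7. The quiescent class shares its markers with astrocytes. Outside its cluster led by Thbs4 and Ecel1, at most 10.4% of the cells of a cluster had an eYFP UMI. The order is therefore not one of traced stem cells and their progeny. The orders of endothelial-like and precursor-like cells, and of TAP-like and neuroblast-like cells, were not the same at both ages or did not exceed counting error.

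Bst2 was highest in microglia-like cells, at 176 and 199 CPM in WT, ahead of endothelial-like cells at 136 and 113. Ensheathing glia-like cells had 46.3 and 58.2 and quiescent NSC-like cells 13.9 and 18.4, while neuroblast-like cells did not exceed 1.34 in any library. Lgals3bp had a narrower range, with 65.6 and 70.4 in microglia-like, 43.7 and 57.8 in ensheathing glia-like and 26.4 and 43.3 in quiescent NSC-like cells. Endothelial-like cells had 60.6 and 45.3 of Lgals3bp on 4 UMIs each, so their place in that order was not resolved.

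The IFITM genes and Ly6e led in endothelial-like cells. Ifitm3 had 712 and 884 CPM there in WT and 658 and 789 in ensheathing glia-like cells, against 73.9 and 43.3 in quiescent NSC-like cells. Ifitm2 had 303 and 374 in endothelial-like, 224 and 213 in ensheathing glia-like and 28.0 and 9.78 in quiescent NSC-like cells. Ly6e reached 1167 and 1767 in endothelial-like and 749 and 763 in microglia-like cells, yet in quiescent NSC-like cells it was at 3.36 and 0.742. Ly6e was thus close to undetected in quiescent NSC-like cells. The description of the set as steadily transcribed in glia held for it in microglia-like cells and not in quiescent NSC-like or ensheathing cells. In WT, oligodendrocyte precursor-like cells had 26.0 and 53.7 on 2 and 10 UMIs, and activated NSC-like cells had 26.6 and 18.8. These classes exceeded the near-empty droplets described below in 3 and 1 of 4 libraries.

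Free RNA sets a limit on the low values. In near-empty droplets Ifi27 was at 107 (young) and 294 CPM (old) in the WT libraries and at 48.4 and 121 in the KO libraries, and Ifitm3 ranged from 32.7 to 262. Ifi27, Bst2, Ifitm3 and Ifitm2 in ensheathing glia-like and endothelial-like cells exceeded the droplet value in 4 of 4 libraries. In quiescent NSC-like cells Lgals3bp exceeded it in 4 of 4 libraries, Bst2 in 3, Ifi27 and Ifitm3 in 2, Ifitm2 in 1 and Ly6e in 0. Activated NSC-like, TAP-like, neuroblast-like and neuron-like cells exceeded it for Ifi27 in 0 of 4 libraries each. The order of Ifi27 given for these 4 classes therefore lies below the droplet level. The near-empty droplets of the KO libraries also held less Ifi27 and Bst2 than those of WT of the same age, which moves the same way as the levels in cells. Its part in the differences was not tested. Neuron-like cells of the same libraries, at 17.5 and 31.2 for Ifi27 in WT, lay far below the droplet values.

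**Figure D1:**
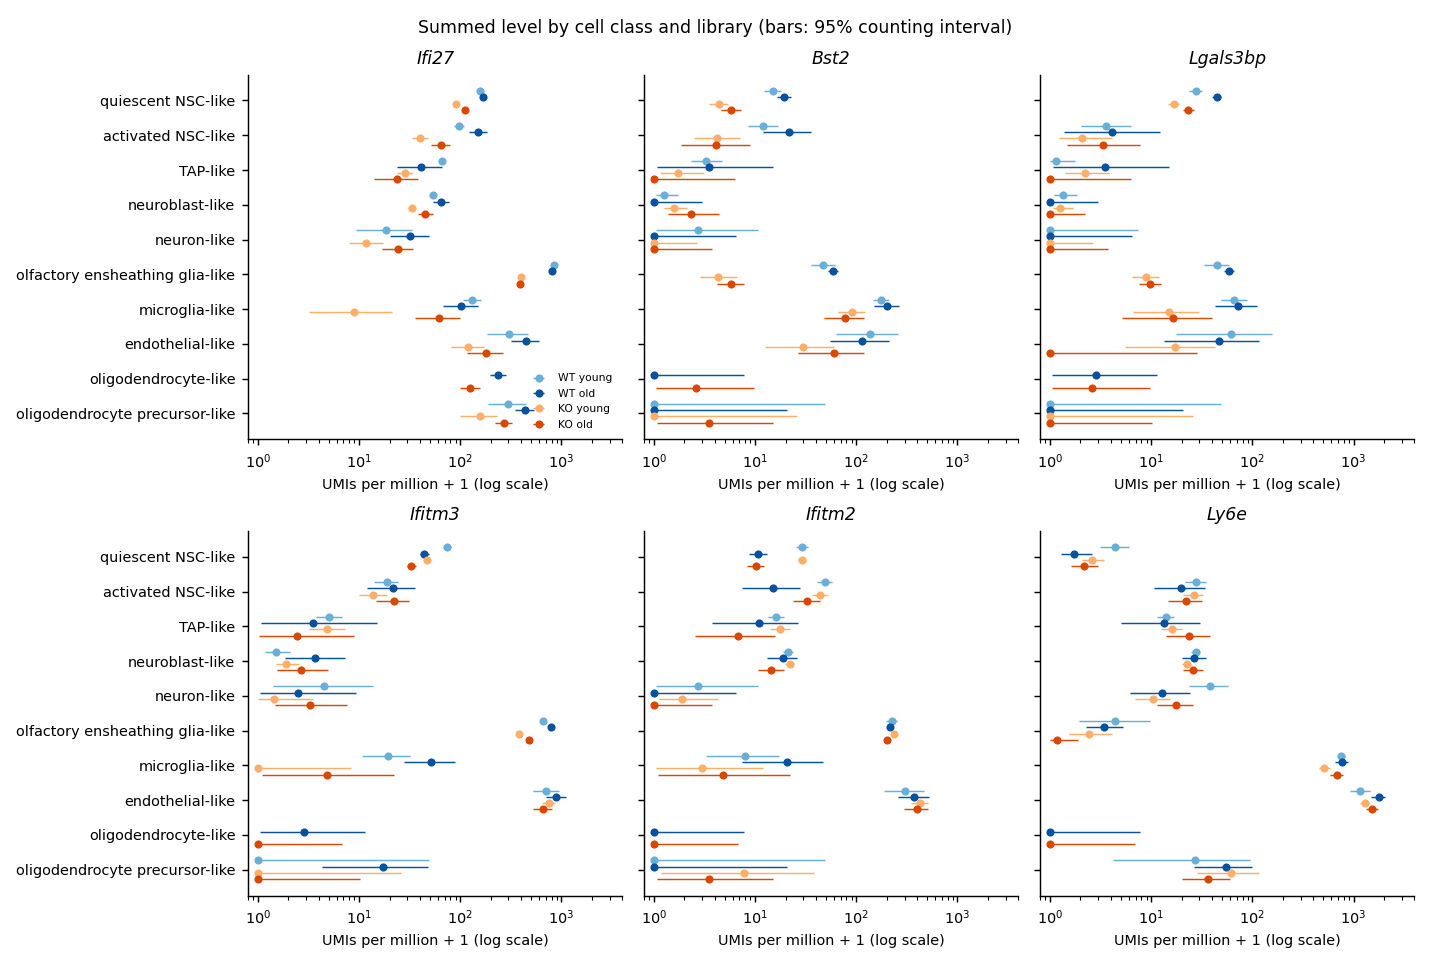
Level of each gene by cell class (rows) and library (colours), as CPM plus 1 on a log axis, with 95% counting intervals as bars. Ifi27 and Ifitm3 reach their highest values in ensheathing glia-like and endothelial-like cells, Bst2 in microglia-like cells, and Ly6e stands near 1 in quiescent and ensheathing cells.

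Across the receptor knockout, the members fell into those lower in KO in every class and those that were not. Taking each member, named class and age with at least 20 UMIs, 68 combinations, Ifi27 was lower in KO than in WT in 19 of 19, Bst2 in 8 of 8 and Lgals3bp in 6 of 6. Ifitm3 was lower in 7 of 10, Ly6e in 9 of 14 and Ifitm2 in 4 of 11. The 95% counting interval of the ratio lay wholly below no change in 15 combinations for Ifi27, 7 for Bst2, 6 for Lgals3bp, 4 for Ifitm3, 4 for Ly6e and 0 for Ifitm2. It lay wholly above no change in 1, Ifitm2 of old activated NSC-like cells (14.1 CPM in WT and 31.8 in KO, 9 and 41 UMIs, log2 ratio 1.17, 0.11 to 2.40). These intervals cover counting error only, since each library is 1 reaction. The members were chosen on this contrast, so the counts restate the choice. No share over all genes is given beside them, and nothing is read from them. The 19 for Ifi27 include activated NSC-like, TAP-like, neuroblast-like and neuron-like cells, which exceeded the droplet value in 0 of 4 libraries each.

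The size of the difference varied with the gene and the class. Bst2 of ensheathing glia-like cells was at 46.3 and 58.2 CPM in WT and 3.33 and 4.76 in KO (13.9-fold and 12.2-fold higher in WT, young and old), and Lgals3bp at 43.7 and 57.8 against 7.85 and 8.74. Ifi27 differed 2.13-fold and 2.09-fold in the same cells, with 840.5 and 810.4 against 394 and 387, and Ifitm3 1.74-fold and 1.65-fold, with 658 and 789 against 378 and 479.5. Ifitm2 was at 224 and 213 in WT and 236 and 202 in KO. The KO ensheathing glia had 0.469 (young) and 0.477 (old) times the WT level of Ifi27 and 0.0720 and 0.0818 times that of Bst2.

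In microglia-like cells of the young mice Ifi27 was at 131 CPM in WT and 7.96 in KO, resting on 94 and 4 UMIs (log2 difference -4.04, 95% counting interval -5.95 to -2.64). In the old it was at 102 and 61.3 (log2 -0.73, -1.73 to 0.22). Bst2 in microglia-like cells was at 176 and 199 in WT and 89.5 and 76.6 in KO, a smaller ratio than in ensheathing glia. Ifitm3 had 13 UMIs in WT young microglia-like cells and 0 in KO young, so that WT was at least 3.04-fold higher against a floor of 3 UMIs in the KO library. Of these 13 UMIs, 8 lay in the antiviral-rich cells described below. Microglia-like cells exceeded the near-empty droplets for Ifitm3 in 0 of 4 libraries and for Ifi27 in 1 of 4. The part of free RNA in these differences was not tested. Ly6e in microglia-like cells was at 749 and 763 in WT and 515 and 678 in KO. In endothelial-like cells, 14 to 43 cells a library, Ifi27 was 2.55-fold and 2.47-fold higher in WT, while the interval of Ifitm3, Ifitm2 and Ly6e took in no change at both ages. With few cells a difference of moderate size in those genes was not detectable.

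**Figure D2:**
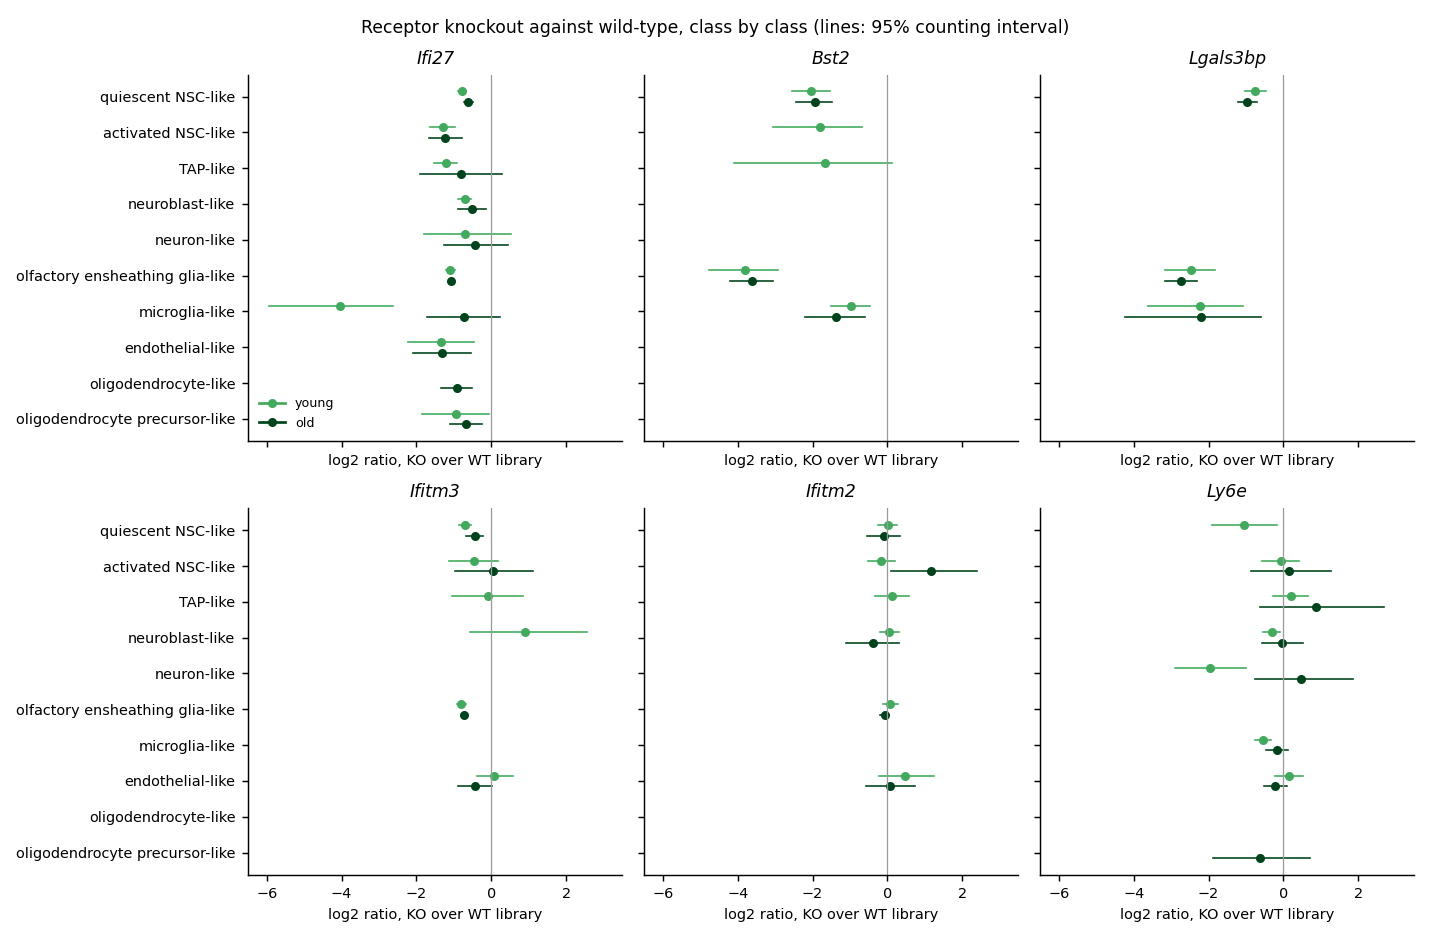
Log2 ratio of KO to WT library for each gene and class, young and old, with 95% counting intervals as lines. Values for Ifi27, Bst2 and Lgals3bp lie left of 0 wherever a pair holds at least 20 UMIs, while endothelial-like Ly6e lies around 0, as does Ifitm2 except in old activated NSC-like cells (1.17).

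The same values in each mouse show how far the groups separated. For the quiescent class of the vSVZ, with 130 to 337 cells a mouse, Ifi27 was at 187 and 172 CPM in the young and 209 and 149 in the old WT mice, against 87.0 and 105 in the young and 129 and 108 in the old KO mice. Every KO mouse was below every WT mouse. In RoB quiescent cells (44 to 130 cells a mouse) Ifi27 was at 119.7 and 145 (young) and 198 and 153 (old) with the receptors and 80.5 and 61.5 (young) and 98.4 and 90.2 (old) without them, again without overlap. Ensheathing glia-like cells had 851 and 892 (young) and 876 and 771 (old) in WT, and 400.3 and 446 (young) and 399 and 385 (old) in KO, where the mice lay close together.

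Bst2 of vSVZ quiescent cells was at 29.3 and 19.5 CPM (young) and 45.5 and 5.09 (old) in WT, and at 3.89 and 3.02 (young) and 3.61 and 6.59 (old) in KO. The second WT old mouse lay inside the KO range, so the old groups overlapped. Of the 44 Bst2 UMIs of the first WT old mouse, 33 came from a single cell, and without that cell its value was 11.5. The ensheathing glia-like cells had 80.4 and 28.7 (young) and 78.0 and 47.2 (old) in WT, and 4.62 and 5.14 (young) and 5.27 and 6.31 (old) in KO, with a wide gap between genotypes.

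Lgals3bp of vSVZ quiescent cells was at 20.4 and 18.8 CPM (young) and 35.1 and 36.1 (old) in WT, and at 7.79 and 13.8 (young) and 16.4 and 15.9 (old) in KO. The genotypes did not overlap at either age. Its ensheathing glia-like values were 52.0 and 30.9 (young) and 71.5 and 48.5 (old) in WT, and 7.27 and 9.43 (young) and 6.32 and 10.5 (old) in KO, also without overlap.

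Ifitm3 of vSVZ quiescent cells was at 122 and 106 CPM (young) and 130.2 and 51.3 (old) in WT, and at 74.0 and 75.6 (young) and 48.1 and 46.1 (old) in KO. The old groups were separated only by the gap of 51.3 to 48.1. The ensheathing glia-like values of Ifitm3 were 761 and 662 (young) and 902 and 751 (old) in WT, and 453 and 423 (young) and 548 and 522 (old) in KO, without overlap at either age. Ifitm2 of vSVZ quiescent cells was at 25.5 and 44.4 CPM (young) and 11.4 and 13.4 (old) in WT, and at 19.5 and 42.7 (young) and 10.4 and 13.2 (old) in KO, so its genotypes overlapped and its ages did not.

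Fitted over mice with edgeR, the KO minus WT difference in vSVZ quiescent cells of the young was -0.86 ± 0.14 on the log2 scale for Ifi27 (SE, 2 against 2 mice), -2.74 ± 0.64 for Bst2, -0.76 ± 0.33 for Lgals3bp, -0.57 ± 0.21 for Ifitm3 and -0.17 ± 0.28 for Ifitm2. In the old it was -0.50 ± 0.13, -1.97 ± 0.58, -1.10 ± 0.25, -0.74 ± 0.23 and -0.09 ± 0.38 in the same order. In RoB quiescent cells it was -0.83 ± 0.26 in the young and -0.87 ± 0.19 in the old for Ifi27, and -1.43 ± 0.47 and -0.79 ± 0.31 for Lgals3bp. Bst2 there was 0.82 ± 1.08 in the young, on 3 UMIs in WT and 6 in KO, and -2.12 ± 0.53 in the old. Ly6e had too few UMIs in quiescent cells to be fitted.

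Both KO mice lay below both WT mice for 4 of the 5 members with 20 UMIs in vSVZ quiescent cells of the young, where 23.2% of all genes with 20 UMIs did so, and for 3 of 5 in the old, where 21.4% did. In RoB quiescent cells it was 2 of 5 in the young (17.5% of all genes) and 4 of 5 in the old (23.5%). For ensheathing glia it was 5 of 6 at both ages, against 19.3% of all genes in the young and 27.1% in the old. Nothing is read from these counts, since the members were chosen on this contrast. The smallest two-sided p that exact permutation of 2 against 2 mice can give is 0.333.

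Markers of other cell types were near 0 in the quiescent cells. Summed over 6 markers, microglia genes were at 0 to 4.75 CPM and endothelial genes at 0.673 to 3.10 in vSVZ quiescent cells of a mouse, and at 0 to 9.23 and 0 to 6.15 in RoB. The 6 endothelial markers summed in ensheathing glia-like cells to 536 to 828 CPM in the WT mice and 392 to 644 in the KO mice, with 2 to 4 of the 6 found, led by Cldn5, which is among the leading genes of an ensheathing cluster itself. Microglia markers there summed to 23.6 to 65.9. Their part in the values of that class was not tested.

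**Figure D3:**
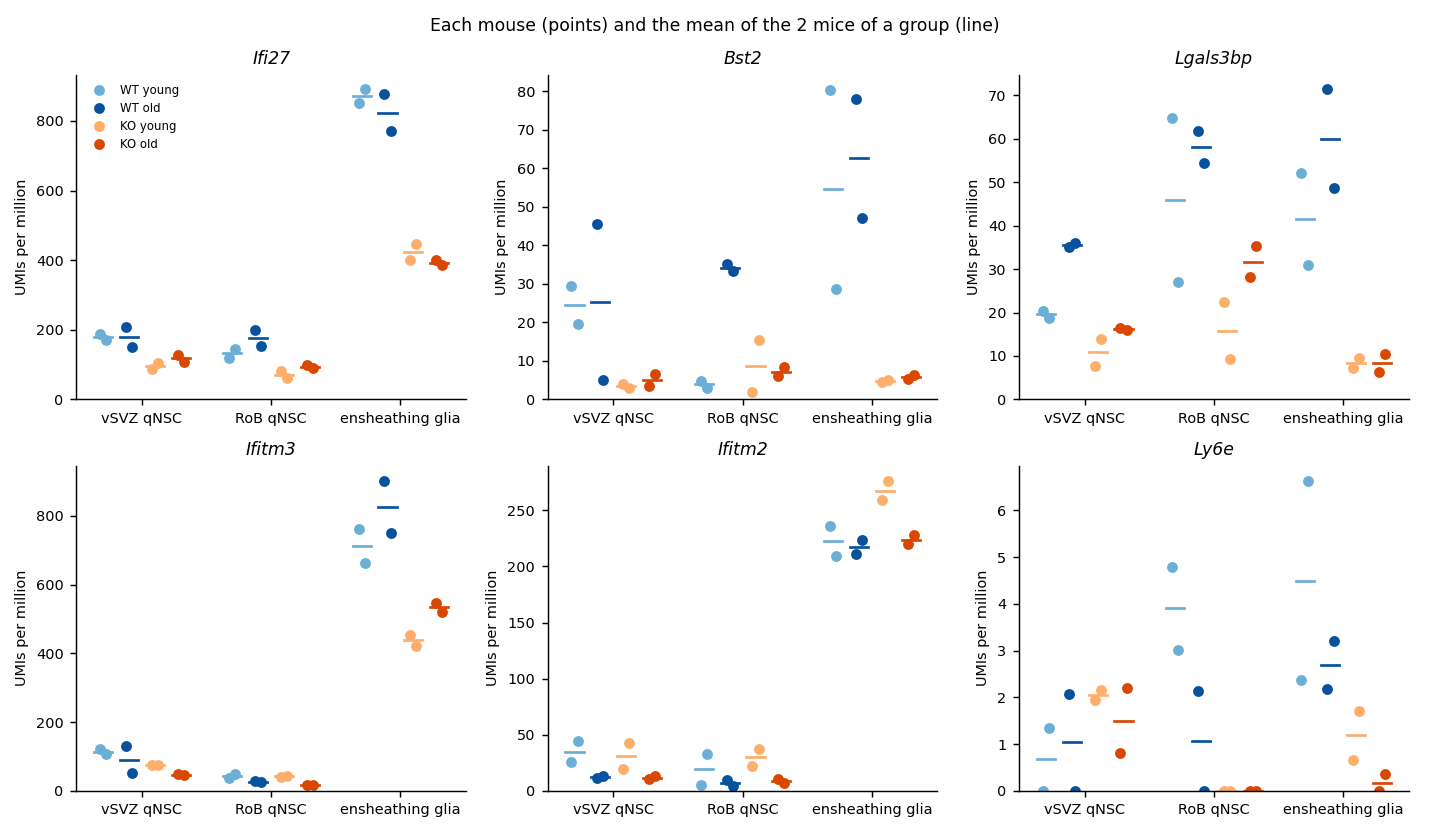
CPM of each gene in each mouse (points), with the mean of the 2 mice of a group as a line, for quiescent NSC-like cells of the vSVZ and of RoB and for ensheathing glia-like cells. Ifi27 and Lgals3bp of the KO mice lie below those of the WT mice of the same age in all 3 sets, whereas the points of Ifitm2 mix between genotypes and split by age in the vSVZ. In young ensheathing glia-like cells both KO mice lie above both WT mice for Ifitm2 (means 267.5 and 223 CPM).

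The quiescent NSC-like cells were not uniform in these genes. Of their 6 clusters, the cluster led by Thbs4 and Ecel1 (1015 cells) had an eYFP UMI in 50.6% of cells, against at most 10.4% in the others, and is called the eYFP-rich cluster here. Within vSVZ quiescent cells of the same mouse, Ifitm3 was higher in the eYFP-rich cluster than in the other quiescent cells in 8 of 8 mice (mean 188 against 44.6 CPM), Ifitm2 in 8 of 8 (49.4 against 11.6), Bst2 in 8 of 8 (40.1 against 4.44) and Ifi27 in 8 of 8 (188 against 129.5). The Bst2 mean rested on the first WT old mouse, and over the other 7 mice it was 20.1 against 4.30. Without the cells rich in antiviral transcripts, described below, Ifi27 was higher in 7 of 8 mice. Lgals3bp was higher there in 1 of 8 mice (16.5 against 23.6), and without the second WT old mouse in 0 of 7 (9.96 against 22.3). As clusters are built from the same cells, this is a description.

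The share of this cluster among vSVZ quiescent cells was 45.4% and 51.7% (young) and 23.8% and 10.9% (old) in the WT mice, and 39.3% and 37.8% (young) and 15.7% and 17.6% (old) in the KO mice. It was smaller in every old mouse than in every young mouse, so age differences of Ifitm2 and Ifitm3 over all quiescent cells are given below with and without it. Within the single quiescent clusters the genotype difference varied by member. Ifi27 was lower in KO than in WT in 6 of 6 quiescent clusters at both ages, with every interval below no change, and Lgals3bp in 6 of 6 at both ages, with 4 intervals below no change at each. Bst2 was lower in 4 of 6 in the young (2 intervals below no change) and 6 of 6 in the old (4), and Ifitm3 in 6 of 6 (3) and 5 of 6 (2). Ifitm2 was lower in 2 of 6 in the young and 4 of 6 in the old, with 1 interval above no change, in the young.

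**Figure D4:**
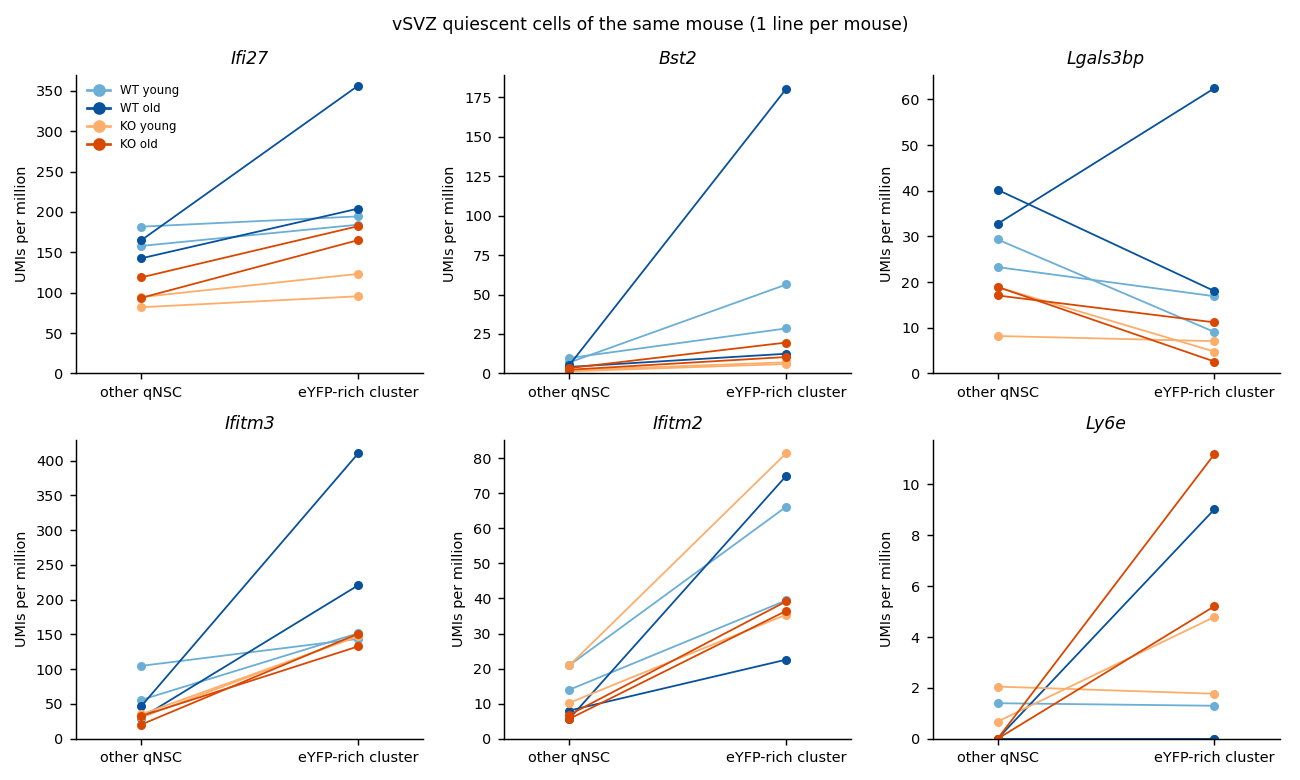
CPM of each gene in the eYFP-rich cluster and in the other quiescent cells of the vSVZ, joined by a line for each of the 8 mice. Lines of Ifitm3, Ifitm2 and Bst2 rise towards the eYFP-rich cluster in every mouse, and the first WT old mouse stands highest for Bst2 (180.4) and Ifitm3 (410.5).

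Some cells, most of them in wild-type mice, had a much stronger interferon profile. A cell was counted as antiviral-rich where the 49 antiviral effector genes that are not members made up over 2000 CPM, a limit set after values were seen. Among quiescent NSC-like cells there were 10 of 1268 in WT young (0.789%, exact 95% interval 0.379% to 1.45%) and 7 of 1074 in WT old (0.652%, 0.262% to 1.34%). There were 0 of 2028 in KO young and 0 of 1448 in KO old, with exact 95% upper limits of 0.182% and 0.254%. Among ensheathing glia-like cells there were 11 of 192 in WT young (5.73%, 2.89% to 10.0%), 77 of 607 in WT old (12.7%, 10.1% to 15.6%), 2 of 453 in KO young and 5 of 772 in KO old. The KO ones were shallow, with medians of 2100 (young) and 3796 UMIs (old) against 9258 and 7992 in the remaining cells. In WT the medians were 6683 and 8291 against 5981 and 8029. Microglia-like cells had 14 of 150 and 8 of 43 in WT and 0 of 93 and 2 of 43 in KO. Endothelial-like cells had the largest shares, with 6 of 14 and 10 of 22 in WT and 3 of 43 and 4 of 25 in KO. Their median WT cell was already at 1864 (young) and 1892 CPM (old) of these genes, close to the limit. In this class the limit therefore does not set apart cells with a much stronger profile. Activated NSC-like and TAP-like cells had 1 each in WT young and 0 in the other libraries. Neuroblast-like and neuron-like cells had 0 in all libraries.

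In the antiviral-rich quiescent cells Bst2 was at 678 (young) and 1240 CPM (old), against 9.55 and 12.9 in the remaining cells. Ifitm3 was at 1288 and 1571 against 65.98 and 36.4, and Ifi27 at 1062 and 744 against 151 and 165. Lgals3bp was at 67.8 and 110.2 against 26.2 and 43.0. It had 3 (young) and 4 UMIs (old) in the antiviral-rich cells, so the size of its gap was not resolved. No microglia or endothelial marker was found in these 17 cells. Their median depth was 4340 UMIs in the young and 4992 in the old, below the 5190 and 7487 of the rest.

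Leaving these cells out took 17 quiescent cells from WT and 0 from KO. They were picked for high antiviral transcripts, so a smaller genotype difference of genes high in them was built in. The values are a description. The quiescent difference moved more for Bst2 and Ifitm3 than for Ifi27 and Lgals3bp. In quiescent cells KO minus WT was then -0.73 in the young and -0.59 in the old for Ifi27 on the log2 scale (-0.79 and -0.61 with them), -0.74 and -0.95 for Lgals3bp (-0.75 and -0.96), -1.50 and -1.43 for Bst2 (-2.04 and -1.94) and -0.54 and -0.19 for Ifitm3 (-0.70 and -0.44). For ensheathing glia Bst2 went from -3.80 and -3.61 to -3.48 and -2.87. KO stayed below WT for these 4 genes in both classes and at both ages. No single mouse carried the antiviral-rich ensheathing cells, with 5 and 4 in the WT young mice and 43 and 28 in the WT old mice.

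Age in wild-type vSVZ quiescent cells had opposite signs for Lgals3bp and Ifitm2. Lgals3bp rose from 19.6 ± 1.11 to 35.6 ± 0.654 CPM (SD, 2 mice each), a log2 change of 0.88 ± 0.28 (SE, edgeR adjusted p = 0.0266), and Ifitm2 fell from 34.95 ± 13.4 to 12.4 ± 1.44, a log2 change of -1.53 ± 0.34 (adjusted p = 0.00183). These are 2 of 5 members tested, where 15.5% of all genes were called, and 3 had an unadjusted p under 0.05. DESeq2 called Ifitm2 among the 3 members to which it gave an adjusted p, and gave none for Lgals3bp. Ifi27 did not pass at -0.04 ± 0.14 (adjusted p = 0.898), nor Bst2 at -0.22 ± 0.50 (0.818), nor Ifitm3 at -0.47 ± 0.22 (0.152).

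These calls depended on few mice. Without the eYFP-rich cluster, which leaves fewer cells, the change of Lgals3bp shrank and that of Ifitm2 did not. Lgals3bp lost its call when any of the 4 WT mice was left out, with log2 changes of 0.82 to 0.92 and adjusted p of 0.0571 to 0.223, and without the eYFP-rich cluster it was 0.34 (0.651). Ifitm2 lost its call without the second WT young mouse (-0.98, adjusted p = 0.246), and without the eYFP-rich cluster it was -1.54 (0.0959). Ifitm3 passed at -1.13 without that cluster (0.0128) and at -1.13 without the first WT old mouse (6.08e-05), while it was 0.21 without the second. Bst2 was -2.18 (0.00347) without the first WT old mouse, which holds the cell with 33 UMIs, and 0.96 without the second.

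In KO vSVZ quiescent cells Ifitm2 fell with age as well, from 31.1 ± 16.5 to 11.8 ± 1.95 CPM, a log2 change of -1.46 ± 0.31 (edgeR adjusted p = 0.00291). It was the single call among 5 members, where 4.63% of all genes were called, and 3 members had an unadjusted p under 0.05, while DESeq2 gave Ifitm2 no adjusted p. The call was lost without the second KO young mouse (-0.72, 0.529), without the first KO old mouse (-1.25, 0.0747) and without the eYFP-rich cluster (-1.42, 0.113). Lgals3bp was 0.54 ± 0.30 (0.376), Ifi27 0.32 ± 0.14 (0.215) and Ifitm3 -0.64 ± 0.22 (0.0965). Without the eYFP-rich cluster Ifitm3 was -0.30 ± 0.27 (0.752), and it passed when either WT old mouse was left out of the joint fit (0.00833 and 0.00895). Whether age acted differently in KO and WT was tested as an interaction. edgeR called 0 of 5 members (adjusted p 0.434 to 0.968, 1.15% of all genes called), with 0 at an unadjusted p under 0.05, and DESeq2 called 0 of the 1 member with an adjusted p. The interaction for Lgals3bp was -0.34 ± 0.41 and for Ifitm2 0.08 ± 0.48, intervals too wide to tell a difference from none.

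In RoB quiescent cells of the wild-type, Bst2 was at 4.79 and 3.01 CPM in the young mice (2 and 1 UMIs) and 35.2 and 33.3 in the old (33 and 33 UMIs), without overlap. The log2 change was 3.04 ± 0.73 (edgeR adjusted p = 0.0252), the single call of 5 members, where 1.52% of all genes were called and 2 members had an unadjusted p under 0.05. Pooled over mice, 66 against 3 UMIs give a log2 ratio of 3.10 with a counting interval of 1.49 to 5.41. The call was lost when any of the 4 WT mice was left out (2.79 to 3.44, adjusted p 0.113 to 0.182), and DESeq2 gave none of the 5 members an adjusted p.

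The Bst2 molecules of the old RoB mice were concentrated. A quiescent cluster led by 1500015O10Rik and Hs3st3a1 held 19 of the 33 UMIs in 17 cells of the first WT old mouse and 25 of the 33 in 30 cells of the second. Single cells with 9 and 12 UMIs were among them. Without the cells with at least 5 Bst2 UMIs the pooled counts were 45 against 3 (log2 ratio 2.56, 0.92 to 4.89), and without that cluster they were 22 against 3 (1.48, -0.25 to 3.87). The other members did not pass in this comparison, Ifi27 being 0.43 ± 0.20 (0.334) and Lgals3bp 0.29 ± 0.33 (0.751). In KO RoB cells edgeR called 0 of 5 members by age (0.281% of all genes), with 3 at an unadjusted p under 0.05 and 0 of 5 by DESeq2. Ifitm3 was -1.30 ± 0.41 there (0.220) and Ifitm2 -1.72 ± 0.67 (0.390).

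Ensheathing glia-like cells showed no called age change in any member. edgeR called 0 of 5 in WT (2.17% of all genes called), with 0 at an unadjusted p under 0.05 and 0 of 3 by DESeq2, and 0 of 5 in KO (0.336%), with 2 at an unadjusted p under 0.05 and 0 of 5 by DESeq2. Ifi27 was -0.12 ± 0.11 in WT (0.643) and -0.09 ± 0.11 in KO (0.869), the tightest of these estimates, and Bst2 was 0.19 ± 0.34 in WT (0.839). The age comparison could not be made in microglia-like cells, where WT old and KO old had 1 mouse each with at least 20 cells.

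Between tissues of the same 8 mice, Ifitm3 and Lgals3bp differed in opposite directions in quiescent NSC-like cells. Ifitm3 was higher in the vSVZ in 8 of 8 mice, at 81.7 ± 33.8 against 31.9 ± 12.03 CPM in RoB (SD, n = 8), a log2 difference of 1.39 ± 0.14 with the mouse as a block (edgeR adjusted p = 1.87e-09). Lgals3bp was higher in RoB in 7 of 8 mice, at 37.9 ± 20.2 against 20.6 ± 10.0, a log2 difference, vSVZ minus RoB, of -0.86 ± 0.17 (adjusted p = 0.000289). These are 2 of 4 members tested, where 13.7% of all genes were called. Ifi27 was 0.24 ± 0.09 (0.0589; higher in the vSVZ in 7 of 8 mice) and Ifitm2 0.55 ± 0.23 (0.122).

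Both tissue calls held with each mouse left out in turn, Ifitm3 at 1.20 to 1.47 and Lgals3bp at -0.95 to -0.76. Ifi27 passed without the second WT old mouse (0.30, 0.0322). Without the eYFP-rich cluster, which lies mostly in the vSVZ, Ifitm3 was 1.03 (0.000139) and Lgals3bp -0.71 (0.00366). The sort gates differed between the tissues, so tissue and gate cannot be told apart.

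**Figure D5:**
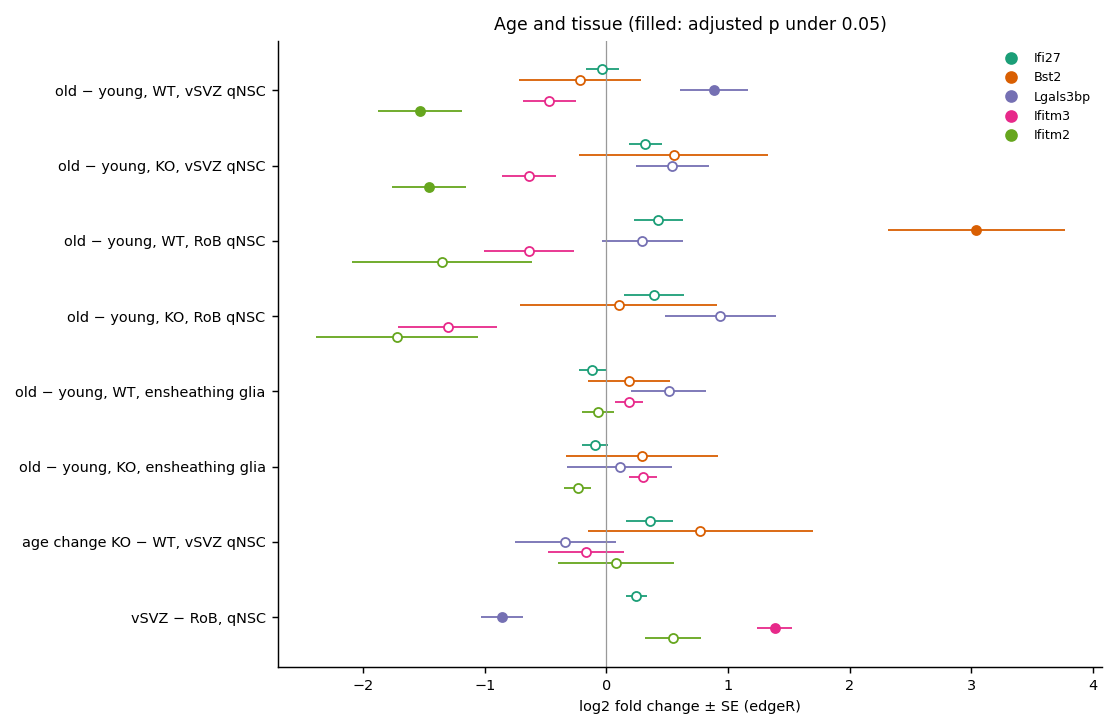
Log2 fold changes with SE from edgeR for the members by age and by tissue, filled where the adjusted p was under 0.05. Filled points mark Lgals3bp and Ifitm2 with age in WT vSVZ, Ifitm2 in KO vSVZ, Bst2 in WT RoB, and Ifitm3 and Lgals3bp between tissues.

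The wider interferon pathway was followed with 139 genes in lists of receptors and signalling, antiviral effectors, antigen presentation, interferon-inducible GTPases and relatives of the members, of which 132 were in the matrix. In vSVZ quiescent cells 63 passed the filter. Comparing KO with WT in the young, 1 was higher and 5 were lower in KO (2.99% of all genes called). The lower ones were the targeted Ifngr1 (-4.53) and Ifnar1 (-2.08) and the IFIT genes Ifit1 (-2.86), Ifit3 (-1.26) and Ifit3b (-1.09), whose proteins bind viral RNA or its complexes. The higher one was the GTPase gene Gbp2b, with 0 UMIs in WT and at least 7.65-fold higher in KO against the floor of the group. In the old, Ifngr1 (-4.85) and Ifnar1 (-2.90) were lower and Gbp2b was at least 7.50-fold higher (0.197% of all genes called). In RoB only the targeted Ifngr1 passed among 34 genes at both ages, at -3.94 and -3.36 (0.463% and 0.0421% of all genes called). Gbp2b, Ifit3 and Ifit3b have near-identical copies, so their share of reads is uncertain. DESeq2 gave an adjusted p to 4 of the 63 in the young vSVZ and called 0, and gave one to all 63 in the old and called 2. The median log2 change over the 63 genes was -0.24 in the young and -0.14 in the old.

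With age in WT vSVZ quiescent cells 6 list genes rose and 7 fell, of 63 tested, where 15.5% of all genes were called. Stat3 (0.90), Samd9l (1.63) and Zc3hav1 (1.41), both antiviral effectors, and the class I antigen presentation genes H2-D1 (0.66) and H2-K1 (0.39) rose with Gbp7 (0.67). The signalling inhibitor Socs3 (-1.15), the antiviral Ifit1 (-1.64) and Cmpk2 (-1.37), the galectin Lgals3 (-1.87), the proteasome activator Psme2 (-0.78) and the GTPase Gbp6 (-1.85) fell. Ly6h, of the Ly6 family, had 0 UMIs in WT old and was at least 9.19-fold lower. In KO mice Zc3hav1 (2.39), Rsad2 (1.65) and Psmb8 (1.49) rose and Lgals3 (-2.06) fell, where 4.63% of all genes were called. DESeq2 called 2 of the 27 list genes to which it gave an adjusted p in WT, and 0 of 6 in KO. The interaction passed in 0 of 63 by edgeR (1.15% of all genes called), with 9 at an unadjusted p under 0.05, and DESeq2 called 0 of the 2 with an adjusted p. In RoB edgeR called 0 of 34 list genes with age in WT (6 at an unadjusted p under 0.05) and 0 of 34 in KO (3). There DESeq2 gave none of the 34 an adjusted p in WT, so it made no test, and called 0 of 34 in KO.

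Of the pathway genes, 77 were tested in ensheathing glia-like cells. With age in WT, Ifi27l2a, a relative of Ifi27, rose by 0.72 and Ifit1 by 0.87, and Isg15, a ubiquitin-like modifier, fell (-1.92), where 2.17% of all genes were called. In KO H2-K1 rose by 0.50 (0.336% of all genes called). No gene of all tested was called in WT when either WT old mouse was left out, 4 were without the second WT young mouse, and none was called in KO without the first KO young mouse. DESeq2 called 2 of the 28 list genes with an adjusted p in WT and 0 of 77 in KO. Between tissues, Socs3 (0.82), Psme1 (0.33) and Gbp7 (0.43) were higher in vSVZ quiescent cells and Irf2 (-0.48) and Lgals1 (-0.79) were higher in RoB, 5 of 40 tested, where 13.7% of all genes were called.

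The genes closest in pattern differed between the members. Over 16 sums, from 4 classes in 4 libraries, and 9590 genes, Bst2 was most like Rtp4 (Pearson r = 0.97) and Lgals3bp most like Ifit3b (0.97), followed by Psmb8 and Eif2ak2 (0.96 each). Ifi27 was most like Socs1 and Ddx58 (0.97 each). Ifitm3 was instead most like Cd82 (1.00), Ifitm2 most like Jun (0.99) and Ly6e most like Cir1 (0.98). The sums share libraries and classes, so these correlations describe the order of classes as much as genotype. The 4 classes were quiescent NSC-like, neuroblast-like, neuron-like and ensheathing glia-like cells, those with at least 50 cells in every library. Among the members Ifi27 and Ifitm3 were at r = 0.95 and Bst2 and Lgals3bp at 0.92, while Ly6e was negatively related to the others (-0.81 to -0.55). Endothelial-like and microglia-like cells, where Ly6e was highest, were not among the classes, so its negative sign holds for these 4 only.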

How the data were processed

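The authors sequenced 4 reactions with hashtag libraries, removed index-hopped molecules and deposited UMI counts per gene and droplet from kallisto and bustools on GRCm38, and hashtag counts from CITE-seq-Count. The deposited counts were not normalized. An unassigned hashtag sample was not used. Kept droplets (18390) had between 1000 and 20000 UMIs, between 100 and 6000 genes and a mitochondrial share below 10%, Scrublet doublets were removed (18055 left) and hashtags were called by a mixture model. Of the barcode sequences, 30 occurred in more than 1 library. Clustering used scanpy 1.11.5 (2000 genes, 50 components, 15 neighbours, Leiden resolution 1).

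Counts were summed per class, tissue and mouse with at least 20 cells and tested by edgeR 4.0.16 (quasi-likelihood, TMM, filterByExpr, Benjamini-Hochberg over all genes, threshold 0.05); a mouse block entered the tissue test only. DESeq2 1.42.0, no filter, strict hashtags, resolution 0.5, omission of the eYFP-rich cluster and of each mouse were alternatives. Nothing shows that the hashtagged mice were processed apart. For group contrasts the p-values rest on the spread between the 2 mice of a reaction, estimated jointly over the 4 groups. In the tissue test they rest on the spread of the tissue difference over 8 mice. Intervals and floors (3 counts) cover counting error only. Members and lists were chosen with earlier results of these data known; the pathway genes named are the called ones, up to 5 a list, and similar genes the first 3. The tests were checked on simulated counts.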

Additional observations from a re-analysis of the deposited data

Results flagged for a closer look

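Among 12 sets of 8 mice examined by Dixon's test at the 95% level, which flags about 5% of sets by chance, the difference between the eYFP-rich cluster and the other quiescent cells of the vSVZ had a mouse far from the others in 4 sets. The first WT old mouse stood apart for Ifi27, at 191 CPM (others 12.7 to 71.5), for Bst2, at 175 (4.64 to 49.4), and for Ifitm3, at 364 (38.9 to 191). The second WT old mouse stood apart for Lgals3bp, at 29.7, where the other 7 mice ranged from -22.2 to -1.12. Each of these mice had 31 cells in the cluster, so single cells weigh heavily. In the first, 33 of its 40 Bst2 UMIs in the cluster came from 1 cell. With antiviral-rich cells left out the first mouse was at 152 for Ifi27, 28.5 for Bst2 and 141 for Ifitm3, and the second at 26.8 for Lgals3bp.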

How the results depend on the processing

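No paired analysis was possible because hashtag numbers in different groups mark different mice; tissues were compared within mice throughout. The other settings moved counts of called genes, in most fits downwards. At resolution 0.5 the cluster led by Ecel1 and Thbs4 (1449 cells) took no name and left the quiescent class. For quiescent cells, resolution 0.5 and omission of the eYFP-rich cluster are therefore nearly the same setting. With age in WT vSVZ quiescent cells edgeR called 1581 genes, DESeq2 652, strict hashtags 847, resolution 0.5 410 and omission of the eYFP-rich cluster 387. In the same order, age in KO vSVZ went from 471 to 115, 92, 152 and 149, KO against WT in young vSVZ from 304 to 135, 134, 82 and 80, in old vSVZ from 20 to 6, 8, 13 and 13 (54 without a filter), the interaction from 117 to 68, 20, 35 and 37, age in WT RoB from 108 to 39, 36, 59 and 59 (164 without a filter), and age in KO RoB from 20 to 1, 7, 3 and 3 (55 without a filter). KO against WT in RoB went from 33 to 10 by DESeq2 and 63 without a filter in the young, and from 3 to 1 and 16 in the old. In ensheathing glia age in WT went from 220 to 440 without a filter, and age in KO from 34 to 13 by DESeq2 and 206 without a filter. Fits with fewer samples or cells, and resolution 0.5, also test other gene sets; causes were otherwise not tested. The tissue count (1109) stayed within 1.5 times. DESeq2 changed the genes higher of all called from 23 of 33 to 8 of 10 for KO against WT in young RoB and from 95 of 220 to 50 of 152 for age in WT ensheathing glia.

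Leaving out each mouse in turn gave 653 to 1685 genes for age in WT vSVZ, 99 to 491 for age in KO vSVZ, 76 to 352 and 6 to 33 for KO against WT in young and old vSVZ, 30 to 167 for the interaction, 25 to 232 and 8 to 57 for age in WT and KO RoB, 9 to 54 and 1 to 10 for KO against WT in young and old RoB, 0 to 269 and 0 to 75 for age in WT and KO ensheathing glia, and 922 to 1084 for tissue.

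Among the members, signs turned only for values that had not been called, except as said. With strict hashtags age in WT vSVZ was 0.024 for Ifi27 and 0.25 for Bst2, and the interaction of Ifitm2 -0.20. Resolution 0.5 and omission of the eYFP-rich cluster both leave the Thbs4 and Ecel1 cells out. With these settings the interaction of Ifitm3 was 0.82 and 0.83, its age change in RoB 0.51 in WT and 0.62 in KO under both. Bst2 with age in KO RoB was -0.036 by DESeq2. With each mouse left out, age in WT vSVZ ranged from -0.25 to 0.22 for Ifi27, -2.18 to 0.96 for Bst2 and -1.13 to 0.21 for Ifitm3, and the interaction from -0.40 to 2.73 for Bst2, -0.62 to 0.20 for Lgals3bp, -0.84 to 0.49 for Ifitm3 and -0.47 to 0.82 for Ifitm2. Age in WT RoB ranged from -0.15 to 1.11 for Lgals3bp and -2.24 to 0.49 for Ifitm2, age in KO RoB from -0.99 to 1.94 for Bst2, age in WT ensheathing glia from -0.37 to 1.09 for Bst2 and -0.13 to 0.019 for Ifitm2, and age in KO ensheathing glia from -0.38 to 0.37 for Lgals3bp. With cells thinned to 1000 UMIs the share of quiescent cells with a UMI turned to KO over WT for Ifitm3 in the old (log2 0.076) and Ly6e in the young (0.32).

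Of 68 combinations of member, class and age, 53 had KO below WT, 57 with doublets kept, 53 at resolution 0.5, 54 as a mean over cells, 45 when thinned and, in an alternative added after values were seen, 50 of 64 without antiviral-rich cells. Quiescent sums of 44 cells and genes with under 20 UMIs limit what could be detected.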

Other observations

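Bst2 was unevenly spread over cells in the wild-type, a description made after values were seen. Quiescent NSC-like cells with at least 5 Bst2 UMIs numbered 3 in WT young and held 19 of 95 Bst2 UMIs, and 4 in WT old held 60 of 149 (40.3%). Neither KO library had such a cell among 2028 and 1448, with at most 4 and 3 UMIs in a cell. Among ensheathing glia-like cells 2 in WT young held 18 of 54 UMIs and 18 in WT old held 159 of 288 (55.2%), with 0 in both KO libraries, where no cell had more than 3. Among activated NSC-like cells the counts were 2 of 266 in WT young, 1 of 49 in WT old and 0 of 220 and 0 of 107 in KO. The antiviral effectors stood higher in the same cells, at 6603 and 2903 CPM in the quiescent ones of WT young and WT old against 334 and 399 in the rest.

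In the unnamed cluster led by Dcn, a matrix proteoglycan gene of fibroblasts, 15 to 96 cells a library, the mean levels of Ifitm3 and Ifitm2 followed those of endothelial-like and ensheathing glia-like cells, at 162 and 174 CPM over the 4 libraries. The range over libraries was 0 to 309 CPM for Ifitm3 and 0 to 346 for Ifitm2, with 0 UMIs of either in the 15 cells of WT young.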
